A study of Mus musculus with 6 samples.

Results

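Scavenger receptors are the surface and endosomal proteins with which macrophages and dendritic cells bind modified lipoproteins, microbes, dying cells and haemoglobin complexes before taking them up. They are grouped into classes by structure rather than by descent, and several classes share the SRCR domain, a cysteine-rich fold that binds ligands. Many are used as markers of macrophage states, and uptake of oxidised lipoprotein through some of them is part of the formation of foam cells in atherosclerosis. The 8 genes described here are Marco, Msr1, Mrc1, Cd163, Cd68, Scarb1, Stab1 and Cd5l, found by gene symbol among the 54532 annotated genes of the count table. They were picked as a family with their changes known, some higher and some lower with DB2313, so every fold change and adjusted p of these 8 genes below is a description and not an independent test.

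RNA-seq counts came from cultured mouse dendritic cells, 3 untreated control libraries and 3 libraries treated with DB2313, a small molecule that the study describes as an inhibitor of the transcription factor Spi1 (PU.1). All cells were kept in medium with fetal bovine serum and antibiotics. The labels gave no strain, age, dose or duration. The study itself wrote of macrophages, not dendritic cells. Its methods name a DB2313 concentration for peritoneal macrophages elicited with thioglycolate, and it gives a duration for a PCR experiment on monocytes, but neither is tied to these libraries. The treated columns of the table carried the name Spi1 in place of the compound, and every direction rests on reading them as the DB2313 libraries. Nothing stated that replicates came from separate cultures, so p-values measure the spread between these libraries, which may be technical.

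Total counts ranged from 16146743 to 19764677 per library. Replicates of a group differed by more than sampling noise, with a chi-square statistic per degree of freedom of 5.01 to 5.54 between control libraries and 7.98 to 19.4 between DB2313 libraries, the highest between DB2313 replicates 1 and 3. The identity of the cells was checked on marker lists. Of 18 dendritic cell markers, 15 exceeded 10 CPM (counts relative to the TMM-scaled size of the library) in control, and their summed level was 14990 to 15340 CPM in control and 12739 to 14862 CPM with DB2313. Of 17 macrophage markers, 12 exceeded 10 CPM, and they summed to 10194 to 11559 CPM in control and 9101 to 9979 CPM with DB2313. Few genes made up most of both sums. Lyz2 alone had a control mean of 8751 CPM in the macrophage list. In the dendritic cell list Cd74 had a control mean of 6557 CPM, and H2-Aa, H2-Ab1 and H2-Eb1 had 1310 to 1790 CPM. The sums therefore do not show how broadly a list was expressed. Among the 12 macrophage markers tested, 2 were called higher (Fcgr1 and Siglec1) and 7 lower (C1qa, C1qb, C1qc, Cd14, Apoe, Csf1r and Itgam). The log2 fold changes of those called lower ranged from -0.97 (C1qa) to -0.25 (Itgam). The Siglec1 groups overlapped, at 28.2, 45.9 and 71.6 CPM in DB2313 replicates 1 to 3 against 24.5 to 33.6 CPM in control. Of 17 dendritic cell markers tested, Clec9a was called higher and Itgax, Batf3 and Irf4 lower, and of 11 neutrophil markers tested, Ly6g, Elane and Retnlg were called higher and Csf3r lower. Fcer1a and Hdc were called higher among 7 mast cell and basophil markers tested, and over all genes tested 4.66% were called higher and 5.94% lower. Among markers of resident macrophages, Vsig4, Timd4, Folr2, Clec4f and Lyve1 had at most 5 counts in any library, whereas Siglec1 had 391 to 1191 counts. Markers of neutrophils (4476 to 5024 CPM in control, 4526 to 5936 CPM with DB2313), of mast cells and basophils (2471 to 2670 and 2513 to 3027 CPM) and of T and NK cells (250 to 306 and 239 to 359 CPM) were also present, whereas B cell markers (33.4 to 39.1 and 40.3 to 46.5 CPM), stromal and endothelial markers (51.6 to 56.8 and 54.2 to 56.3 CPM) and erythroid markers (2.21 to 3.14 and 1.56 to 4.07 CPM) were low. The part of these shifts in the results below was not tested, and in bulk samples fewer cells of a type and less RNA per cell cannot be told apart.

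DB2313 targets a factor that binds purine-rich DNA with the core GAGGAA, so the sequence just before the start sites is shown first. RefSeq windows (GRCm38.p6) matched 6 of the 8 genes, all except Msr1 and Scarb1. The 250 bases before the start site are printed 5′ to 3′ on the strand of the gene for Marco, the one gene called higher, for Mrc1 and Stab1, 2 well expressed genes called lower, and for Cd163, the one window without the core. Capitals mark GAGGAA or its reverse complement TTCCTC.
Marco, chr1:120505025-120505274, minus strand: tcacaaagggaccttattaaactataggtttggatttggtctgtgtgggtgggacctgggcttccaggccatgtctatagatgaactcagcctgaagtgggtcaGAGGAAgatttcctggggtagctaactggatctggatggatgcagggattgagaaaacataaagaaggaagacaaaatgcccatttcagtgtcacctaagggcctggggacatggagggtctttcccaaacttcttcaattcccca
Mrc1, chr2:14229164-14229413, plus strand: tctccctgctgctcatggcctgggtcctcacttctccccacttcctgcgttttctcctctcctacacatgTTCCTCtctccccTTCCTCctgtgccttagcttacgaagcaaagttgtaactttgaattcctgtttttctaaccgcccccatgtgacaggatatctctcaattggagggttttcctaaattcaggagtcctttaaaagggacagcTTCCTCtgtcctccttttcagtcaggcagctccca
Stab1, chr14:31168642-31168891, minus strand: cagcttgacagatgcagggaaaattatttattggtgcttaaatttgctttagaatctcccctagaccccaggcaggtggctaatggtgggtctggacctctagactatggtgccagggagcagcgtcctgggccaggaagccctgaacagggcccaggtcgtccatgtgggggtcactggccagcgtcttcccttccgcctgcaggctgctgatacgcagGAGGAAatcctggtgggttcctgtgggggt
Cd163, chr6:124304401-124304650, plus strand: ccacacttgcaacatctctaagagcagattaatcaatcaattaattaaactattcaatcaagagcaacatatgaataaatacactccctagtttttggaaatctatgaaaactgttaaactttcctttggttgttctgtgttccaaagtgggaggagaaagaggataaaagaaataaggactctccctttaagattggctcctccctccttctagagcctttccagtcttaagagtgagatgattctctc

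Both strands were searched for 3 motifs. GAGGAA was found in the windows of 5 genes (Marco, Mrc1, Cd5l, Cd68 and Stab1) and in 23.25% of the 32851 RefSeq windows of the same length. Its first base lay 146 bases before the start site in Marco, 30 in Stab1, 66 in Cd5l and 225 in Cd68, and Mrc1 held it 3 times, 180, 167 and 35 bases before the start. The longer AGGAAGT, which shares AGGAA with the core, was found in Mrc1 and in 7.69% of all windows. The AP-1 letters TGANTCA were found in Cd68, at 149 and 24 bases before the start site, and in 6.75% of all windows. The core was thus present in genes called higher, called lower and not called. A match is a description of letters and not of binding.

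With DB2313, 1 of the 8 genes was called higher (Marco), 5 were called lower (Msr1, Mrc1, Stab1, Cd163 and Cd5l) and 2 were not called (Cd68 and Scarb1), at an adjusted p under 0.05 in edgeR's quasi-likelihood test over the 14174 genes tested. In that comparison 10.6% of the genes tested were called, 4.66% higher and 5.94% lower, and nothing is read from the difference because the same contrast was used to pick the genes. All 8 genes passed the filter on low counts, but Cd163 and Cd5l passed it only through the control libraries, so that the filter favoured a difference. Their calls are given for completeness. Separation of the groups in CPM was found for all 8 genes and for 27.4% of the genes tested. The median log2 fold change was -0.53 over the 8 genes and 8e-04 over all genes tested.

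**Figure D1:**
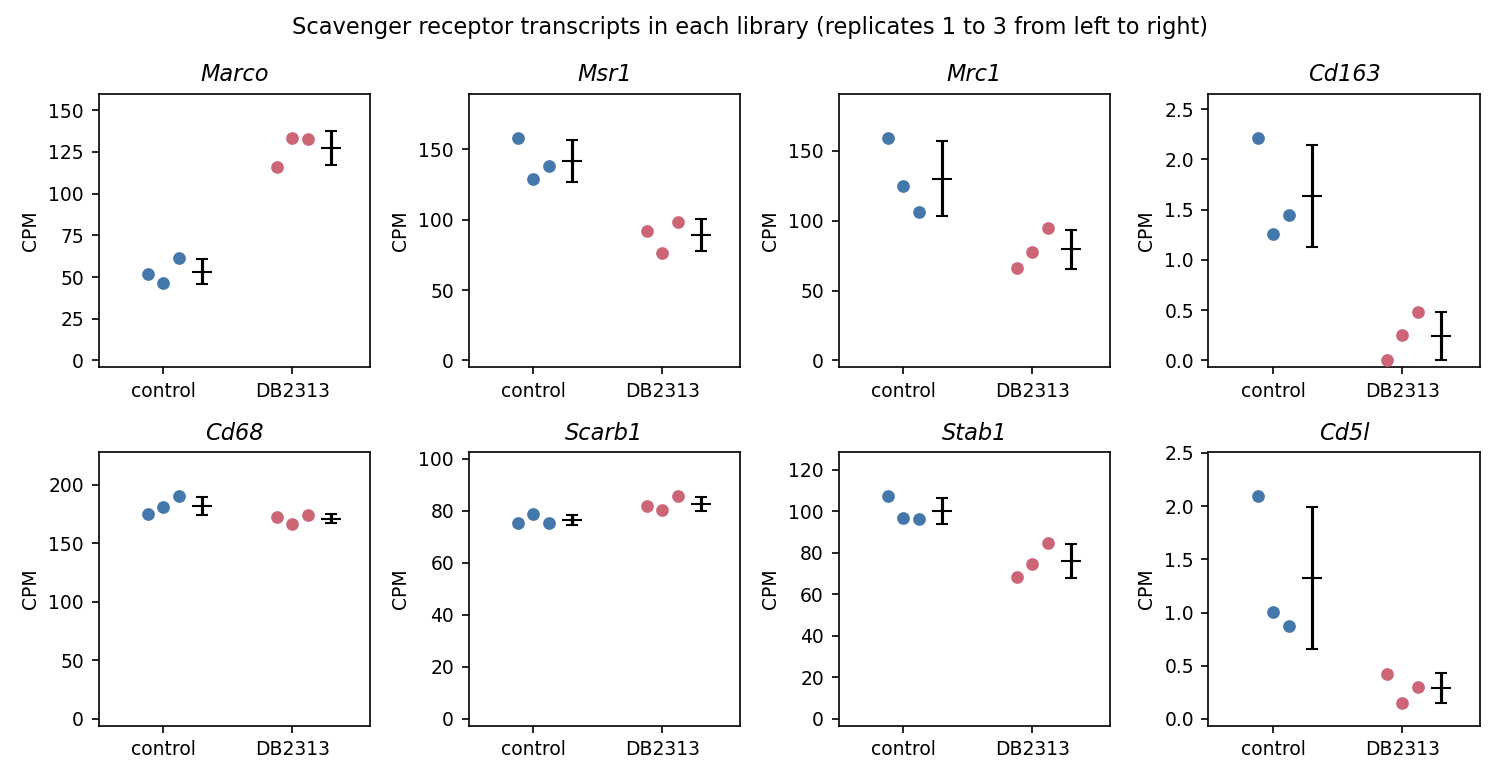
CPM of the 8 genes in each library, 1 panel per gene with its own vertical axis; points are the 3 control (blue) and 3 DB2313 (red) libraries, and black marks are the mean with SD. Marco is higher in every DB2313 library, Msr1, Mrc1, Stab1, Cd163 and Cd5l are lower in every DB2313 library, and the groups lie close together for Cd68 and Scarb1.

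Levels were compared between genes per kilobase of the deposited gene length, which sums the exons of all isoforms. In control, Cd68 was the most abundant at 144 ± 6.13 CPM per kb (SD, n = 3), followed by Marco (27.7 ± 3.95), Msr1 (22.3 ± 2.37), Mrc1 (20.4 ± 4.22), Stab1 (9.74 ± 0.594), Scarb1 (8.995 ± 0.231), Cd5l (0.650 ± 0.327) and Cd163 (0.2997 ± 0.0930, CPM per kb ± SD). The range of Marco overlapped that of Msr1, although Marco was the higher of the pair within each control library. Msr1 and Mrc1 overlapped too, and did not keep 1 order within the control libraries. Stab1 (9.37 to 10.4) and Scarb1 (8.85 to 9.26 CPM per kb) were close without overlapping.

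With DB2313, Cd68 was at 136 ± 3.14 and Marco at 66.1 ± 5.25 CPM per kb (SD, n = 3). Msr1 (12.1 to 15.5) and Mrc1 (10.4 to 14.8 CPM per kb) overlapped each other below them. Scarb1 (9.45 to 10.1 CPM per kb) then lay above Stab1 (6.67 to 8.25), the reverse of their order in control. Cd5l (0.0739 to 0.209) and Cd163 (0 to 0.0880 CPM per kb) overlapped at the bottom.

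**Figure D2:**
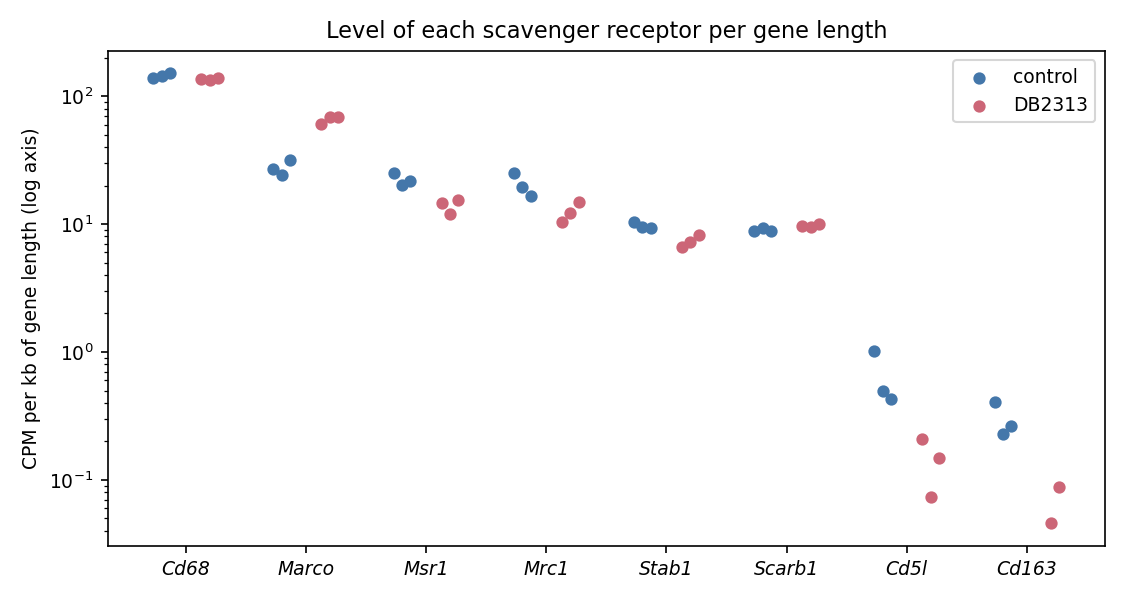
Level of each gene in CPM per kb of gene length on a log axis, genes ordered by their control mean; points are libraries, control in blue and DB2313 in red, and the DB2313 library with 0 counts of Cd163 is not drawn. Cd68 stays at 133 to 151 CPM per kb throughout, Marco moves from 24.1 to 31.9 up to 60.1 to 69.3, and Cd163 and Cd5l lie far below the other genes.

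The sum of the 8 genes was 227 to 240 CPM per kb in control and 238 to 257 CPM per kb with DB2313, and these ranges overlapped. Not divided by length, the sum leaned the other way, at 658 to 730 CPM in control and 597 to 671 CPM with DB2313, also overlapping. The composition of the sum per kb differed, which follows from picking genes that moved in both directions. Marco made up 10.6% to 13.3% of the sum in control and 25.2% to 28.5% with DB2313, while Msr1 went from 8.93% to 10.5% down to 4.96% to 6.10%. Cd68 remained the largest part at 54.05% to 63.3% over all libraries.

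Marco and Msr1 are the class A receptors of the set, trimeric proteins with a collagen-like stalk and an SRCR domain that bind modified lipoproteins and bacteria. They moved in opposite directions. Marco (ENSMUSG00000026390, chromosome 1, 120474538 to 120505024, minus strand, GRCm38) counted 845, 740 and 980 in the control libraries, in replicate order, and 1905, 2659 and 2213 in the DB2313 libraries. Every DB2313 library was well above every control library. In CPM the mean rose from 53.3 ± 7.61 to 127 ± 10.1 (SD, n = 3 each), a fold of 2.39. The log2 fold change was 1.26 ± 0.10 (SE), at an adjusted p of 1.99e-06 in edgeR, and it ranged from 1.17 to 1.37 when 1 library was left out.

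Msr1 (ENSMUSG00000025044, chromosome 8, 39581685 to 39642673, minus strand) had 2570, 2051 and 2197 counts in control and 1519, 1525 and 1635 counts with DB2313. Every DB2313 count was below every control count, and in CPM the DB2313 libraries spread from 76.5 to 98.2, with a coefficient of variation of 12.6% against 10.6% in control. The mean fell from 141 ± 15.02 to 88.99 ± 11.2 CPM (SD, n = 3 each), or by a log2 fold change of -0.67 ± 0.10 (SE) at an adjusted p of 0.00046. in edgeR It ranged from -0.75 to -0.57 without 1 library. Per kilobase, the ratio of Marco to Msr1 was 1.08, 1.19 and 1.47 in the control libraries, in replicate order, against 4.13, 5.75 and 4.46 in the DB2313 libraries. The groups did not overlap in this ratio, which follows from the opposite directions by which both genes were picked.

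Mrc1 (ENSMUSG00000026712, chromosome 2, 14229392 to 14332057, plus strand) encodes the macrophage mannose receptor CD206, a lectin that takes up glycoproteins with exposed mannose and is a common marker of alternatively activated macrophages. It had 2589, 1987 and 1693 counts in control and 1090, 1549 and 1572 counts with DB2313. The lowest control library was only slightly above the highest DB2313 library, at 106 against 94.5 CPM. The control mean was 130.004 ± 26.9 CPM, the DB2313 mean 79.4 ± 14.2 CPM (SD, n = 3 each). The log2 fold change was -0.71 ± 0.14 (SE), at an adjusted p of 0.00325. in edgeR Left-out libraries moved it from -0.85 to -0.54, and it remained called in each of these fits.

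Stab1 (ENSMUSG00000042286, chromosome 14, 31139013 to 31168641, minus strand) encodes stabilin-1, a large receptor that clears acetylated lipoprotein and matrix proteins. It had 1744, 1545 and 1537 counts in control and 1130, 1492 and 1412 counts with DB2313. In CPM the DB2313 libraries (68.6, 74.8 and 84.8) were all below the control libraries (107, 96.9 and 96.4). The log2 fold change was -0.40 ± 0.09 (SE), at an adjusted p of 0.00895. in edgeR The call was lost without control replicate 1 (log2 fold change -0.34, edgeR adjusted p 0.0684) and without DB2313 replicate 2 (-0.38, 0.0604). Of its exon bases, 1.09% overlap Nt5dc2 on the other strand (856 to 1174 counts), and reads there cannot be told apart without strand.

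Cd163 and Cd5l were close to the floor of detection. Cd163 (ENSMUSG00000008845, chromosome 6, 124304656 to 124330527, plus strand) encodes the receptor for complexes of haemoglobin with haptoglobin. It had 36, 20 and 23 counts in control and 0, 5 and 8 counts with DB2313. The 0 in DB2313 replicate 1 allows up to 3 counts, or 0.182 CPM. Summed over libraries, 79 counts in control stood against 13 with DB2313, a ratio of 6.70 after scaling (exact 95% interval 3.70 to 13.1, for counting error only). The gene was picked with its direction known and passed the filter only through control libraries, so this interval is only a description. The fitted log2 fold change was -2.71 ± 0.63 (SE), at an adjusted p of 0.0123 in edgeR, and it ranged from -3.53 without DB2313 replicate 3 (adjusted p 0.00231) to -2.17 without DB2313 replicate 1 (adjusted p 0.0148). The call was lost without control replicate 1 (-2.43, adjusted p 0.0874) and without DB2313 replicate 2 (-2.72, edgeR adjusted p 0.0671).

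Cd5l (ENSMUSG00000015854, chromosome 3, 87357881 to 87371073, plus strand) encodes a secreted SRCR protein of macrophages, also called AIM, and is the one gene of the set whose product is not a membrane receptor. It had 34, 16 and 14 counts in control and 7, 3 and 5 counts with DB2313. Control replicate 1 held more than the other control libraries together, and without it the log2 fold change was -1.69 at an adjusted p of 0.162. in edgeR With all libraries it was -2.19 ± 0.56 (SE, adjusted p 0.0213). The call was also lost without control replicate 2 (-2.34, adjusted p 0.0525) and without DB2313 replicate 2 (-1.85, edgeR adjusted p 0.131). The summed counts were 64 in control and 15 with DB2313, a ratio of 4.70 after scaling (exact 95% interval 2.65 to 8.88, for counting error only). Cd5l too was picked with its direction known and passed the filter only through control libraries, so this interval is only a description.

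Cd68 and Scarb1 were not called. Cd68 (ENSMUSG00000018774, chromosome 11, 69664213 to 69666153, minus strand) encodes macrosialin, a glycoprotein of late endosomes and lysosomes that is used as a general marker of macrophages. It had 2838, 2879 and 3026 counts in control and 2831, 3323 and 2902 counts with DB2313. The DB2313 values of 172, 167 and 174 CPM lay just below the control values of 174, 181 and 189.8 CPM. The log2 fold change was -0.09 ± 0.07 (SE), at an adjusted p of 0.494. in edgeR

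Scarb1 (ENSMUSG00000037936, chromosome 5, 125277087 to 125341094, minus strand) encodes SR-BI, the class B receptor for high-density lipoprotein. It had 1223, 1255 and 1203 counts in control and 1349, 1601 and 1424 counts with DB2313. Its control mean was 76.5 ± 1.97 CPM and its DB2313 mean 82.6 ± 2.70 CPM (SD, n = 3 each), and all DB2313 libraries lay slightly above the control libraries. The log2 fold change was 0.11 ± 0.07 (SE), at an adjusted p of 0.409. in edgeR Both genes had small spreads, with a coefficient of variation of 2.31% to 4.24%, against 7.93% to 20.7% for Marco, Msr1 and Mrc1.

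**Figure D3:**
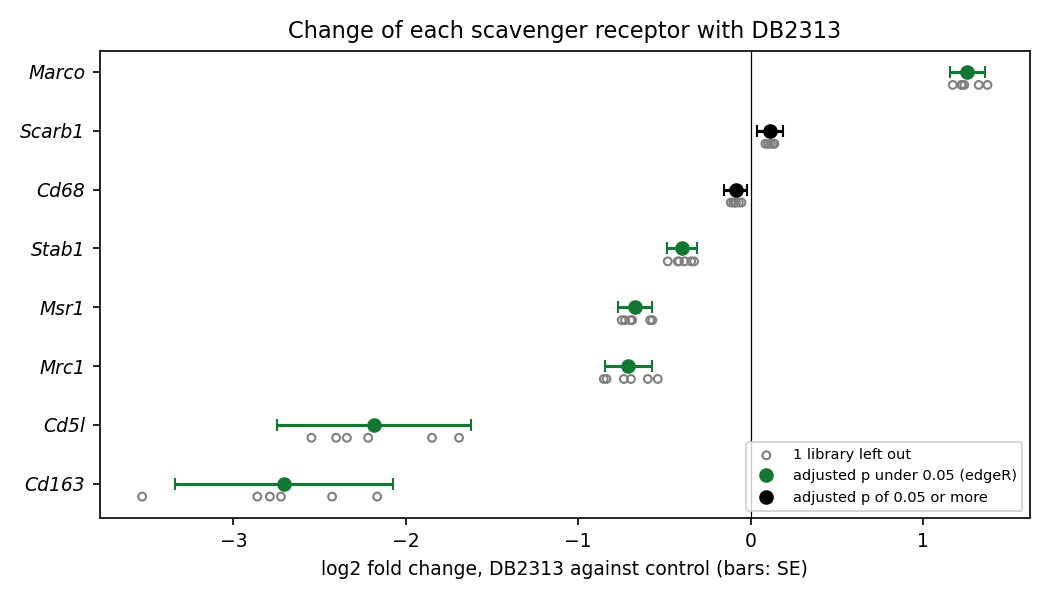
Log2 fold change of each gene, DB2313 against control, with SE bars; green marks an adjusted p under 0.05 in edgeR, black an adjusted p of 0.05 or more, and open circles the fits that each left out 1 library. Marco lies at 1.26, Scarb1 and Cd68 within 0.11 of 0, Stab1, Msr1 and Mrc1 between -0.71 and -0.40, and Cd5l and Cd163 below -2 with wide bars.

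The libraries were not alike within groups. Relative to the control mean of each gene, control replicate 1 was the highest control library for Msr1 (112%), Mrc1 (122%), Cd163 (135%), Stab1 (107%) and Cd5l (158%), the 5 genes called lower. Among the DB2313 libraries, replicate 3 was the highest for Msr1 (69.4%), Mrc1 (72.7%), Cd163 (29.4%) and Stab1 (84.7%), and replicate 1 for Cd5l (32.1%). Marco was at 217% in DB2313 replicate 1 and at 250% in the other DB2313 libraries. Without control replicate 1, or without DB2313 replicate 2, the number of genes called lower was 2 instead of 5, namely Msr1 and Mrc1.

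Other scavenger receptors were followed in a list of 17 genes, of which 13 were tested. Cd36, the class B receptor for oxidised lipoprotein and long-chain fatty acids, was called higher, and Cxcl16 and Scarb2 were called lower. The list's median log2 fold change was 0.16, against 8e-04 over all genes tested, of which 4.66% were called higher and 5.94% lower. This list and those that follow were written with earlier results known, so nothing is read from their counts. Cd36 went from 199.5 ± 23.9 to 254 ± 18.9 CPM (SD, n = 3 each), for a log2 fold change of 0.35 ± 0.09 (SE) at an adjusted p of 0.019. in edgeR The call was lost without control replicate 2 (0.34, adjusted p 0.0918) and without control replicate 3 (0.27, edgeR adjusted p 0.121). Cxcl16, a membrane-bound chemokine that also binds oxidised lipoprotein, went from 274 ± 8.25 to 209 ± 26.9 CPM. Its log2 fold change was -0.39 ± 0.08 (SE, edgeR adjusted p 0.00789), and the call was lost without control replicate 3 (-0.37, adjusted p 0.0565) and without DB2313 replicate 2 (-0.38, edgeR adjusted p 0.0589). Scarb2, the lysosomal relative of Scarb1, had a log2 fold change of -0.25 ± 0.08 (SE, edgeR adjusted p 0.0458) and lost its call in 8 of 17 alternatives, 5 of which left out 1 library (all except DB2313 replicate 3), with adjusted p up to 0.245. The others were library totals (-0.23, adjusted p 0.0808), the replicate number as a block (-0.25, 0.115) and that block with the gene-length offset (-0.23, 0.0673, edgeR). The oxidised lipoprotein receptor Olr1 (mean CPM 16.01 in control, 17.9 with DB2313), the endocytic receptor Lrp1 (379.7 and 440, likewise) and 8 others were not called, and Stab2, the paralogue of Stab1, had at most 5 counts.

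Relatives of Mrc1 and Cd68 were listed as families. Ly75, the DEC-205 receptor of dendritic cells and a relative of Mrc1, fell from 229 ± 28.7 to 135 ± 7.45 CPM (SD, n = 3 each). This was a log2 fold change of -0.76 ± 0.09 (SE) at an adjusted p of 5.67e-05 in edgeR, and it remained called in all 17 alternatives. Mrc2, the other relative tested, was at 4.71 ± 0.628 and 7.30 ± 1.73 CPM at an adjusted p of 0.0779 in edgeR. Its log2 fold change was 0.63 ± 0.21 (SE), and its groups did not overlap. Without DB2313 replicate 3, or with no filter on low counts, 1 of the listed relatives of Mrc1 was called higher. For the LAMP family of Cd68, Lamp1 (-0.05 ± 0.06) and Lamp2 (-0.0057 ± 0.08, log2 fold change ± SE) were not called, with edgeR adjusted p of 0.722 and 0.977. Lamp5 had no counts in any library.

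Haemoglobin and haem handling was listed because Cd163 takes up haptoglobin complexes. Of 12 genes tested, 3 were called higher and 1 lower, against 4.66% and 5.94% of all genes tested. The median log2 fold change was 0.10. The iron exporter Slc40a1 (ferroportin) rose from 67.2 ± 5.42 to 130 ± 16.2 CPM (SD, n = 3 each, log2 fold change 0.96, edgeR adjusted p 1.58e-05). Blvrb, a biliverdin reductase, rose from 131 ± 4.28 to 204 ± 4.51 CPM (log2 fold change 0.64, edgeR adjusted p 2.58e-05). Hp itself, which encodes haptoglobin, fell from 237 ± 14.8 to 175 ± 15.5 CPM (log2 fold change -0.44, edgeR adjusted p 0.0022). These 3 genes remained called in all alternatives. Hmox1, the enzyme that opens the haem ring, had a log2 fold change of 0.24 ± 0.07 (SE, edgeR adjusted p 0.0437) and lost its call in 8 of 17 alternatives, including every omission of a library other than DB2313 replicate 3, with adjusted p up to 0.209. It also lost it with the replicate number as a block (0.24, edgeR adjusted p 0.107).

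Receptors and bridging proteins for dying cells formed a list of 17 genes, of which 14 were tested, with a median log2 fold change of 0.12. Of these, 3 were called higher (Itgb3, Mfge8 and Elmo1) and 1 lower (Pros1), against 4.66% and 5.94% of all genes tested. Pros1, a ligand of the receptor Mertk, fell from 10.7 ± 1.93 to 5.74 ± 1.40 CPM (SD, n = 3 each), with a log2 fold change of -0.90 ± 0.20 (SE, edgeR adjusted p 0.00948), and lost its call without control replicate 1 (-0.75, edgeR adjusted p 0.0735). Mfge8, a bridge from phosphatidylserine to integrins, was at 0.32 ± 0.08 (log2 fold change ± SE, edgeR adjusted p 0.0153). It lost its call without control replicates 1 (0.28, adjusted p 0.0993) or 3 (0.34, 0.0637) or DB2313 replicate 2 (0.30, 0.0991, edgeR). Itgb3, an integrin subunit that binds such bridges, was at 0.34 ± 0.08 (edgeR adjusted p 0.00948; 0.30 and 0.0709 without control replicate 3). Elmo1, a scaffold of engulfment signalling, was at 0.25 ± 0.08 (edgeR adjusted p 0.0492) and lost its call in 6 of 17 alternatives, 4 of which left out 1 library (control replicates 1, 2 and 3 and DB2313 replicate 2), with adjusted p up to 0.242. It was also lost with the replicate number as a block (0.25, edgeR adjusted p 0.122). Mertk, Axl and Tyro3, the receptor kinases of this group, were not called (edgeR adjusted p 0.237, 0.87 and 0.0792). The number of listed genes called lower was 3 instead of 1 with the gene-length offset and without DB2313 replicate 3. It was 2 with DESeq2, with no filter on low counts and without DB2313 replicate 1.

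Targets of the liver X receptors, sterol sensors that also drive Cd5l, were listed for their link to lipid uptake. Of 11 genes tested, 4 were called lower and none higher in edgeR, against 5.94% and 4.66% of all genes tested. The median log2 fold change was -0.17. None of the 11 was higher at an unadjusted p under 0.05 in edgeR or at an adjusted p under 0.05 in DESeq2. Abcg1, a cholesterol exporter, fell from 199 ± 10.9 to 135 ± 4.27 CPM, and Apoe, the apolipoprotein that carries exported cholesterol, from 228 ± 13.6 to 157 ± 2.46 CPM (SD, n = 3 each). Their log2 fold changes were -0.56 and -0.54, with edgeR adjusted p of 1.27e-04 and 1.67e-04, and both remained called in all alternatives. Abca1, the exporter to lipid-poor apolipoprotein, was at -0.64 ± 0.14 (log2 fold change ± SE, edgeR adjusted p 0.00901; -0.58 and 0.0608 without control replicate 2). Lpl, the lipoprotein lipase, was at -0.36 ± 0.08 (edgeR adjusted p 0.0118). Its call was lost with the gene-length offset (-0.28, adjusted p 0.0551), without control replicates 1 (-0.34, 0.0702) and 2 (-0.36, 0.0638) and without DB2313 replicate 2 (-0.28, edgeR adjusted p 0.106).

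Genes of alternative activation, the state for which Mrc1 is a marker, changed in both directions. Of 15 tested, 3 were called higher and 5 lower, against 4.66% and 5.94% of all genes tested. The median log2 fold change was -0.07. Arg1, the arginase of this state, fell from 59.1 ± 5.01 to 17.5 ± 3.33 CPM, and Pdcd1lg2, which encodes the PD-1 ligand PD-L2, from 62.1 ± 5.27 to 34.7 ± 6.53 CPM. Clec10a rose from 19.9 ± 1.15 to 57.7 ± 2.72 CPM and Mgl2 from 113 ± 6.09 to 215 ± 27.9 CPM (SD, n = 3 each). Both encode lectins for galactose-type sugars. The log2 fold changes of these 4 genes were -1.76, -0.84, 1.53 and 0.93, in that order, with edgeR adjusted p of 7.09e-07, 2.88e-04, 1.23e-07 and 1.37e-05, and all 4 remained called in all alternatives.

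Of 19 regulators of macrophage genes, 18 were tested, with a median log2 fold change of -0.06. In edgeR 2 were called lower (Spic and Irf4) and none higher, against 5.94% and 4.66% of all genes tested. DESeq2 called none higher either, and at an unadjusted p under 0.05 Klf4 (0.0232) and Bhlhe40 (0.0454) were higher in edgeR. Spic, a relative of PU.1 tied to macrophages that recycle haem, was low, with 35, 54 and 39 counts in control and 10, 23 and 15 with DB2313. Its log2 fold change was -1.56 ± 0.38 (SE, edgeR adjusted p 0.0146), and the call was lost without control replicate 2 (-1.35, edgeR adjusted p 0.108). Irf4, a factor of dendritic cells and alternative activation, was at -0.43 ± 0.08 (log2 fold change ± SE, edgeR adjusted p 0.0018). Spi1, the named target of DB2313, was at 366 ± 18.4 and 329 ± 20.1 CPM (SD, n = 3 each), with overlapping groups and an edgeR adjusted p of 0.206, which was 0.043 with the gene-length offset. Without DB2313 replicate 1, 4 regulators were called lower (Spic, Irf4, Irf8 and Cebpb) and Klf4 was called higher, and when DB2313 replicate 3 was left out Bhlhe40 was. With all libraries kept, the number of regulators called lower was 4 with the gene-length offset. It was 3 with that offset and the replicate number as a block.

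**Figure D4:**
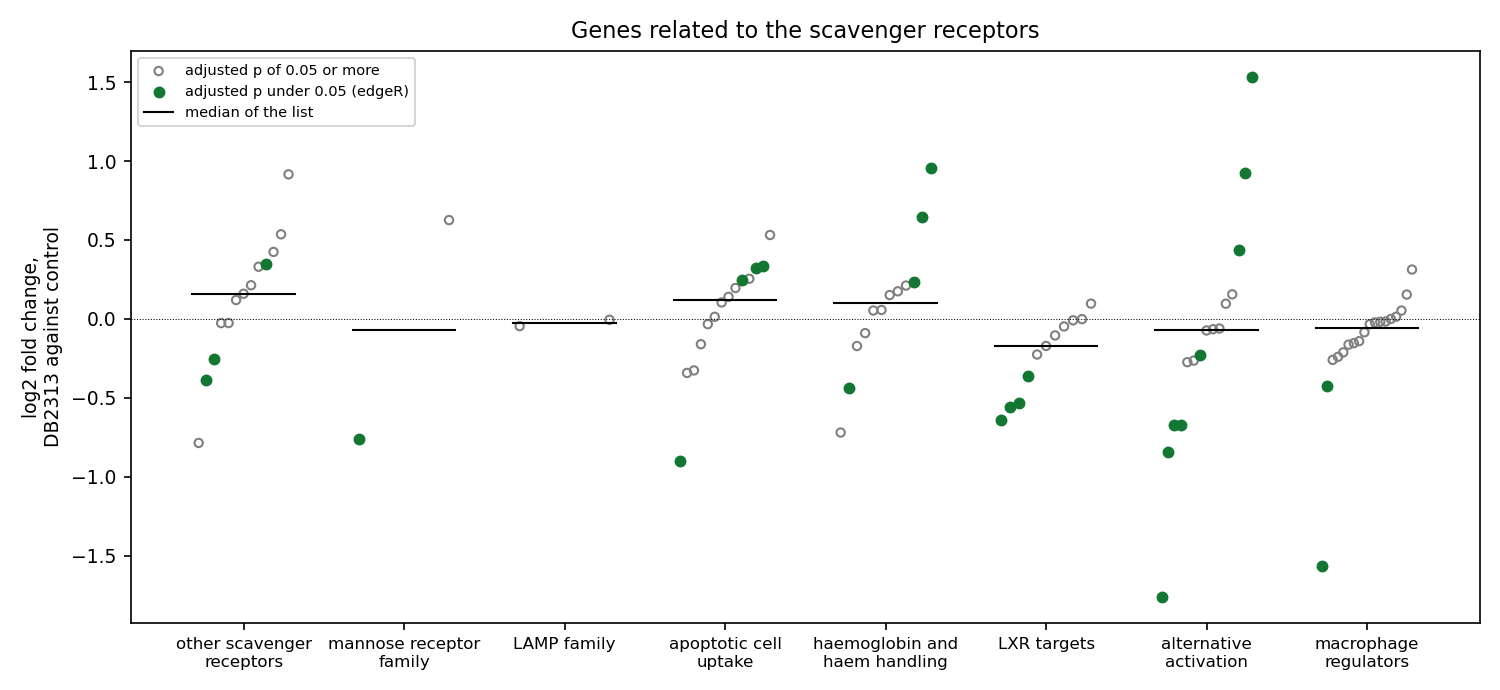
Log2 fold change (DB2313 against control) of each tested gene in 8 lists related to the scavenger receptors; filled green points have an adjusted p under 0.05 in edgeR, open points do not, and black lines are list medians. Called genes lie on both sides of 0 in the lists of other scavenger receptors, apoptotic cell uptake, haem handling and alternative activation, and below 0 alone in the LXR targets, the regulators and the mannose receptor family.

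For each called gene, protein-coding genes with a similar course over the 6 libraries were sought among 11118 candidates, by the root mean square difference of centred log2 CPM. Marco was nearest to Ms4a6b (0.13), a membrane protein of the MS4A family, and to Adcy3 (0.14), an adenylyl cyclase. Msr1 was nearest to Rnf128 (0.03), a ubiquitin ligase that fell from 53.8 to 33.4 CPM in mean, and to Pde5a (0.06), a cGMP phosphodiesterase that was not called (log2 fold change -0.60 ± 0.24, SE, edgeR adjusted p 0.144). Mrc1 was nearest to Cysltr1 (0.05), a leukotriene receptor, and to Adamts7 (0.09), a metalloprotease. Stab1 was near to Tmem168 (0.03), a transmembrane protein. Cd5l was nearest to H2-M2 (0.38) and Arg1 (0.41), and Cd163 to Asb4 (0.88) and D330045A20Rik (0.92), the largest distances among the called genes. The differences are in log2 units, and the group difference enters the measure by which the neighbours were found.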

How the data were processed

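RNA-seq was done on 3 control and 3 DB2313-treated libraries. The authors deposited raw counts per gene (whole numbers, not normalised) with gene lengths, all libraries in 1 table. The submitters' processing notes name CASAVA 1.8, HISAT2 2.0.5 and featureCounts 1.5.0-p3, whereas the methods of the study name LifeScope. Strandedness, build and the treatment of multi-mapping reads were not given in the sources used here. Against GENCODE M21, start and end were identical for 98.33% of the 54409 identifiers found in both, and coordinates are therefore GRCm38. Treated columns were named after Spi1 and control columns by an abbreviation, numbered like the labels, and were matched on that basis.

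Counts were tested with edgeR 4.0.16 (quasi-likelihood, TMM, filterByExpr, prior count of 0.125, group as the only term) in R 4.3.3, with Benjamini-Hochberg adjustment over 14174 genes. SE is the log2 fold change divided by the root of F. The biological coefficient of variation was 9.67%. CPM uses the TMM-scaled library sizes. The study named DESeq2, which was an alternative (1.42.0), besides limma-voom (3.58.1), DESeq2 size factors, library totals, no filter, a mean of 10 counts, robust edgeR, a prior count of 2, a gene-length offset (lowess, span 0.3), the replicate number as a block, both together, and the omission of each library. The fits were run on simulated counts with the same dispersion for every gene. This was a check of the code and does not bear on the calls reported here. Near-identical transcripts were sought with megablast (95% identity over 100 bp), and Stab1 alone had a match, with Nt5dc2 over the 112 bp where both overlap.

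The 8 genes and all lists were chosen with earlier results of these data known, and lists were written from general knowledge. Named genes were the 8 genes, Spi1, up to 4 called genes with the largest absolute log2 fold change per list, and the 2 genes nearest in pattern (mean log2 CPM of at least 1) to each called gene. Olr1, Lrp1, Stab2, Mrc2, Lamp1, Lamp2, Lamp5, Mertk, Axl, Tyro3, Klf4, Bhlhe40, Irf8, Cebpb and the genes of the marker lists were named after their values were seen. The motifs were chosen after the data were seen. Intervals and floors (3 counts) cover counting error only. The labels gave no batch, so no batch could be examined. 1 gene is not reported here.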

Additional observations from a re-analysis of the deposited data

How the results depend on the processing

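Over the 17 alternatives no gene of the set changed direction. The number of genes called higher was 1 in all of them, and that called lower was 5 in the 11 that kept all libraries and ranged from 2 to 5 over the 6 that each left out 1 library, with 2 without control replicate 1 and without DB2313 replicate 2. The calls of Marco, Msr1 and Mrc1 were kept in all 17, with a highest adjusted p of 1.6e-04, 0.00748 and 0.0322, whereas Stab1 lost its call in 2, Cd163 in 2 and Cd5l in 3, all by omission of a library. Cd68 and Scarb1 were not called in any. Over the same omissions, the genes called higher among all genes ranged from 328 to 1097 (661 with all libraries) and those called lower from 411 to 1311 (842). Omission of DB2313 replicate 2 gave the fewest and that of DB2313 replicate 3 the most, and the cause was not tested.

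The labels did not say whether libraries were paired by their replicate numbers. Deviations of same-numbered libraries from their group means correlated at 0.0047, -0.02 and -0.11. For libraries with different numbers the correlations were -0.07 to 0.09. With 3 libraries per group, such values cannot exclude pairing. When replicate number entered as a block, 1 gene of the set was called higher and 5 lower, and 502 and 629 of all genes. Depth limits Cd163 and Cd5l, which had at most 8 and 7 counts per DB2313 library.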
